A study of Mus musculus with 11 samples.

Results

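Slc10a6 and 9 genes of bile acid handling were followed across mouse livers that had received the intracellular domain of Notch1 (NICD1), of Notch2 (NICD2) or of both. The 10 genes were chosen by name, out of 22911 genes named on the array, and all of their 11 probes were taken. Slc10a6 was chosen because its signal was higher with NICD2 in earlier results of these same arrays, so its levels are described here without a test. The other 9 genes are Cyp7a1, Cyp8b1 and Cyp27a1, which make bile acids, Slc10a1, Slco1b2, Abcb11 and Abcc2, which carry them, and Nr1h4 and Nr0b2, which adjust their production.

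RNA of whole liver from C57Bl6/J male mice, injected at 8 weeks of age and examined 5 days later, was hybridised to 11 Agilent 1-colour arrays. GFP mice received 6e+11 viral genomes of AAV8-GFP (3 arrays), NICD1 mice 3e+11 each of AAV8-NICD1 and AAV8-GFP (3 arrays), NICD2 mice 3e+11 each of AAV8-NICD2 and AAV8-GFP (3 arrays), and NICD1&2 mice 3e+11 each of AAV8-NICD1 and AAV8-NICD2 (2 arrays). All groups therefore carried AAV8 at the same total dose, the NICD1&2 group had no GFP vector, and no liver without vector was on the arrays. Expression was driven by the CMV promoter, which is not limited to hepatocytes, and levels are given as log2 of the normalized signal, where 0 is the 75th percentile of the array.

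Bile acids are made from cholesterol in hepatocytes, by a classical route that starts with Cyp7a1 and an alternative route that starts with Cyp27a1. They are taken up from blood by Slc10a1 (Ntcp) and members of the Slco family and are pumped into bile by Abcb11 (Bsep), while the nuclear receptor Nr1h4 (Fxr) senses them and, through the repressor Nr0b2 (Shp), lowers their synthesis. Slc10a6 (Soat) belongs to the same family as Slc10a1 but carries sulphated steroids in place of the common bile acids. Notch intracellular domains act in the nucleus with the DNA-binding protein RBPJ, which recognises sites with the core letters TGGGAA.

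The promoter of Slc10a6 is shown because this gene was the one chosen for its higher signal, and that of Slc10a1 because it is the liver bile acid carrier of the same family and stayed within its replicate spread. Both run 5′ to 3′ from 250 bases before the start of the RefSeq gene to 50 bases after it (GRCm38.p6), and capitals mark TGGGAA or its reverse complement TTCCCA. The first lies at chr5:103629354-103629653 and the second at chr12:80968656-80968955, both on the minus strand.
Slc10a6: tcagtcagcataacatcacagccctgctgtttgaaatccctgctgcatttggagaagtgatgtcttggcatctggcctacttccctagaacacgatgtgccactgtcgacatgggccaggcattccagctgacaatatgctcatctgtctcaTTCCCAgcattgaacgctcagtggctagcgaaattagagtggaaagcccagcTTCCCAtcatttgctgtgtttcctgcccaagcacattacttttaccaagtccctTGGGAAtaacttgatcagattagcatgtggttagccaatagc
Slc10a1: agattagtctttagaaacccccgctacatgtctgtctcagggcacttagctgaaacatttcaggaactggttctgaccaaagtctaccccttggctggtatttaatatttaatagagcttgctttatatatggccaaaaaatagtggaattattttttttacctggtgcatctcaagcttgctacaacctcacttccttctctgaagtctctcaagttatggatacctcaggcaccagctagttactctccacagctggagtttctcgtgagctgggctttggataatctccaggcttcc
The Slc10a6 window holds the letters 3 times, with first letters at positions -98, -46 and 9 relative to the start. The Slc10a1 window holds them 0 times. Promoters were at hand for 9 of the 10 genes, without Cyp7a1, and 4 of the 9 held TGGGAA on either strand (Slc10a6, Abcc2, Nr1h4 and Nr0b2), against 25.6% of 32851 promoters of the same length. The longer form GTGGGAA, which contains TGGGAA, was in 0 of the 9 and in 6.38% of all promoters. These matches describe letters and not bound sites, and no binding was measured.

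Between 57.0% and 62.0% of spots were well above background on each array, and 36055 of 56605 probes entered the tests. The arrays lay on 2 slides that each held all 4 groups. Of the hepatocyte markers, albumin (Alb) was at a mean of 10.21 with GFP, 10.07 with NICD1, 10.14 with NICD2 and 10.37 with NICD1&2, and 0 of the 8 markers of the hepatocyte list were called in any group against GFP. The probes of Notch1 and Notch2 did not pass the test in any group against GFP, and it is not known whether they lie within the injected sequences, so they do not check the vectors. Among Notch targets, Nrarp was at least 4.65-fold higher with NICD2 than with GFP and at least 7.07-fold higher with NICD1&2, while with NICD1, where 2 of 3 arrays measured it, the bound was 1.29-fold. Hes1, another target, differed from GFP by -0.03 with NICD1 (adjusted p = 0.994), 1.64 with NICD2 (adjusted p = 0.419) and 1.36 with NICD1&2 (adjusted p = 0.280). In the same order Hey1 differed by 0.11, 0.29 and 0.71 and Heyl by -0.22, -0.43 and -0.64. Of the 7 tested Notch list genes 0 were called against GFP, where 2, 12 and 20 of all 16627 were called higher. By the study's definition (P below 0.15 without adjustment and over 1.8-fold) 1, 2 and 3 of the 7 were higher, as were 219, 190 and 678 of all genes. Hes1 was among them with NICD2 and NICD1&2. Groups did not overlap for 14.3%, 42.9% and 57.1% of the 7, beside 14.1%, 16.3% and 37.1% of all genes. Adjusted p for Nrarp was 0.104 with NICD2 and 0.072 with NICD1&2 in limma, both above the threshold. None of the 3 GFP arrays measured it well above background, and it entered the test only through the NICD groups, where it is high.

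Slc10a6 was close to background in every group. Its signal was -6.77, -6.58 and -6.54 on the GFP arrays, -5.12, -4.96 and -5.23 with NICD1, -3.35, -3.63 and -3.94 with NICD2, and -3.69 and -4.02 with NICD1&2. The 3 GFP arrays lay below all others, the 3 NICD1 arrays came next, and the NICD2 and NICD1&2 arrays overlapped at the top. The spot was well above background on 0 of 3 GFP, 0 of 3 NICD1, 3 of 3 NICD2 and 1 of 2 NICD1&2 arrays, so that the order of GFP and NICD1 is that of values not well above background. In scanner units the spot medians were small, from 28 to 31 over a local background of 23 to 24 with GFP, 35 to 35.5 over 24 to 25 with NICD1, 36.5 to 45 over 22 to 24 with NICD2, and 39 to 41.5 over 25 with NICD1&2.

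**Figure D1:**
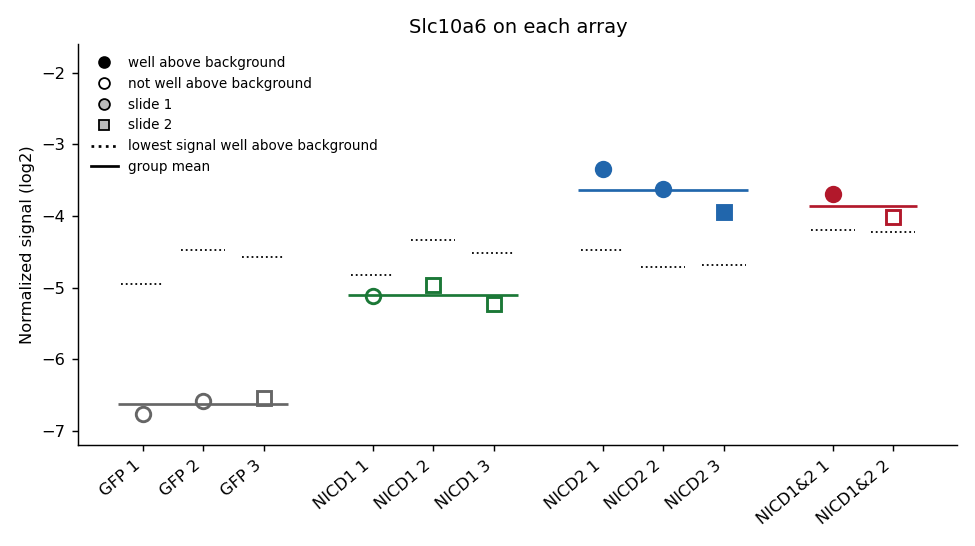
Normalized signal of Slc10a6 (log2, y axis) on each of the 11 arrays (x axis), with the group mean as a line and, dotted, the lowest signal well above background on that array. Filled points were well above background: 3 of 3 with NICD2, 1 of 2 with NICD1&2 and 0 of 6 in the other groups.

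The lowest signal that counted as well above background on an array was between -4.95 and -4.20. Set against it, Slc10a6 was at least 2.04-fold higher with NICD2 than with GFP and at least 1.89-fold higher with NICD2 than with NICD1. For NICD1&2, where only 1 of 2 arrays measured the gene, the bounds were 1.76-fold against GFP and 1.63-fold against NICD1. The measured means were -6.63 ± 0.12 (SD, n = 3) with GFP, -5.10 ± 0.14 (n = 3) with NICD1, -3.64 ± 0.30 (n = 3) with NICD2 and -3.86 ± 0.24 (n = 2) with NICD1&2, of which those of GFP and NICD1 come from arrays without a signal well above background. In RNA of a whole liver, more cells with Slc10a6 RNA and more RNA per cell cannot be told apart. With normexp background correction followed by quantile normalization the bounds shrank to between 1.08-fold and 1.20-fold.

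The genes whose signal followed that of Slc10a6 most closely were named from 16626 other tested genes by Pearson's r over the 11 arrays, as a description. The highest were Wfdc3 (r = 0.975), Tmprss7, a membrane serine protease (0.972), Defb1, an antimicrobial peptide (0.965), Pfkfb4, a glycolysis control enzyme (0.960), and Adamtsl2, a secreted matrix protein (0.960). All 5 shared the order of GFP lowest, NICD1 between, and NICD2 with NICD1&2 highest: Wfdc3 averaged -4.11, -1.11, 1.0 and 1.2, and Adamtsl2 -1.92, -1.53, -1.26 and -1.17. The lowest were AW549542 (r = -0.954), Dusp10, a phosphatase of stress kinases (-0.944), and Plscr3, a phospholipid scramblase (-0.939). Dusp10 averaged -2.95, -3.68, -4.49 and -4.44 and was well above background on 6 of 6 GFP and NICD1 arrays and 0 of 5 others.
The genes share the 4 groups of arrays, and Slc10a6 was not well above background on 7 of the 11, so these r values describe mainly the group means. The names depended on the processing, with 0 of the 5 still among the top 5 under normexp, 2 of 5 under quantile normalization and between 2 and 5 when single arrays were left out (2 without the first GFP or the first NICD1 array, and 3 without the third GFP array, the first or the third NICD2 array or the second NICD1&2 array). Of the Slc10 family, Slc10a2 stood 12th at r = 0.93, and of the Notch targets Nrarp stood 26th at 0.91 and Hes1 529th at 0.70. Among the other 9 genes, Cyp7a1 had the highest r (0.66) and Slco1b2 the lowest (-0.66).

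**Figure D2:**
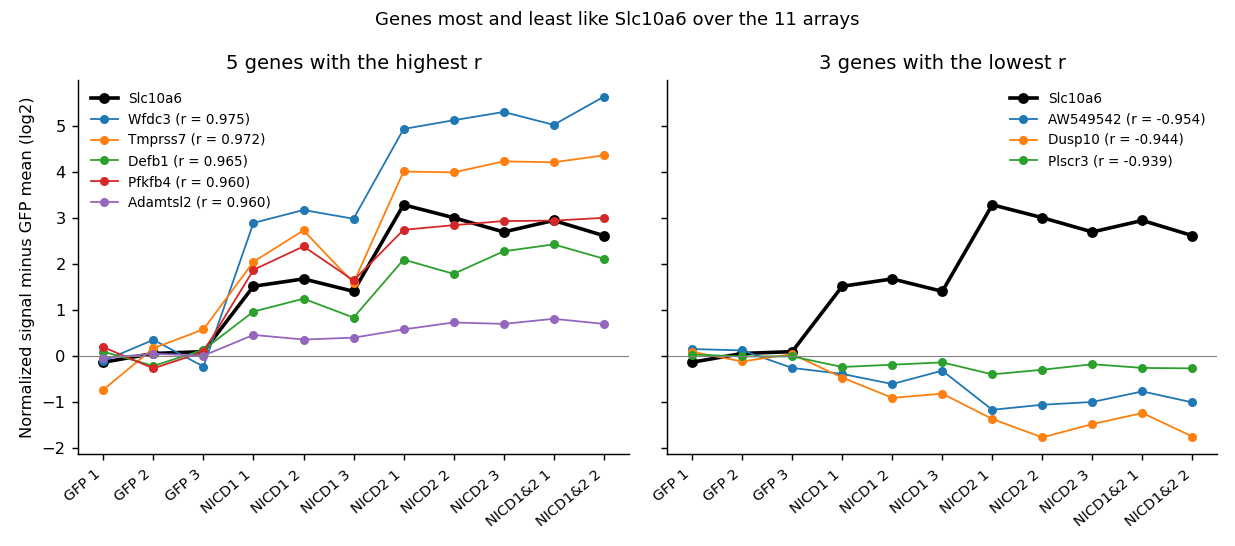
Normalized signal less the gene's own GFP mean (log2, y axis) on each array (x axis) for Slc10a6 (black) and the 5 genes with the highest and 3 with the lowest r, where lines only join the points of a gene. Slc10a6 and the 5 genes of the left panel are lowest on GFP arrays, and the 3 of the right panel are highest there, which their choice by r favours.

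The other 9 genes were well above background on all 11 arrays, and by limma with Benjamini-Hochberg adjustment over all probes none of them passed an adjusted p of 0.05 in any of the 6 comparisons. Against GFP, 0 of 9 were called with NICD1 (0.00832% of all tested probes were), 0 of 9 with NICD2 (0.0527%) and 0 of 9 with NICD1&2 (0.0998%). By the study's definition of an altered gene, P below 0.15 without adjustment together with more than a 1.8-fold difference, the counts were also 0 of 9, where 2.22%, 1.98% and 6.23% of probes met it. At an unadjusted p under 0.05 there were 2 of 9 in each of the 3 comparisons, beside 5.48%, 6.81% and 14.8% of all probes, and a model without moderation of the variances called 0 as well. Groups that did not overlap were found for 1 of 9 genes with NICD1 (12.4% of all probes), 2 of 9 with NICD2 (13.4%) and 3 of 9 with NICD1&2 (34.5%), shares near those of the whole array. The 3 comparisons share the GFP arrays. The median difference from GFP of the 9 was -0.02, 0.01 and -0.06, beside 0.00, 0.02 and 0.12 for all tested genes. The methods speak of at least 3 mice per experimental group, and the legend of the array figure gives n = 3, or n = 2 for NICD1&2. Neither these nor the labels tie each array to a mouse, so the p-values measure the spread between arrays, which may be technical.

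**Figure D3:**
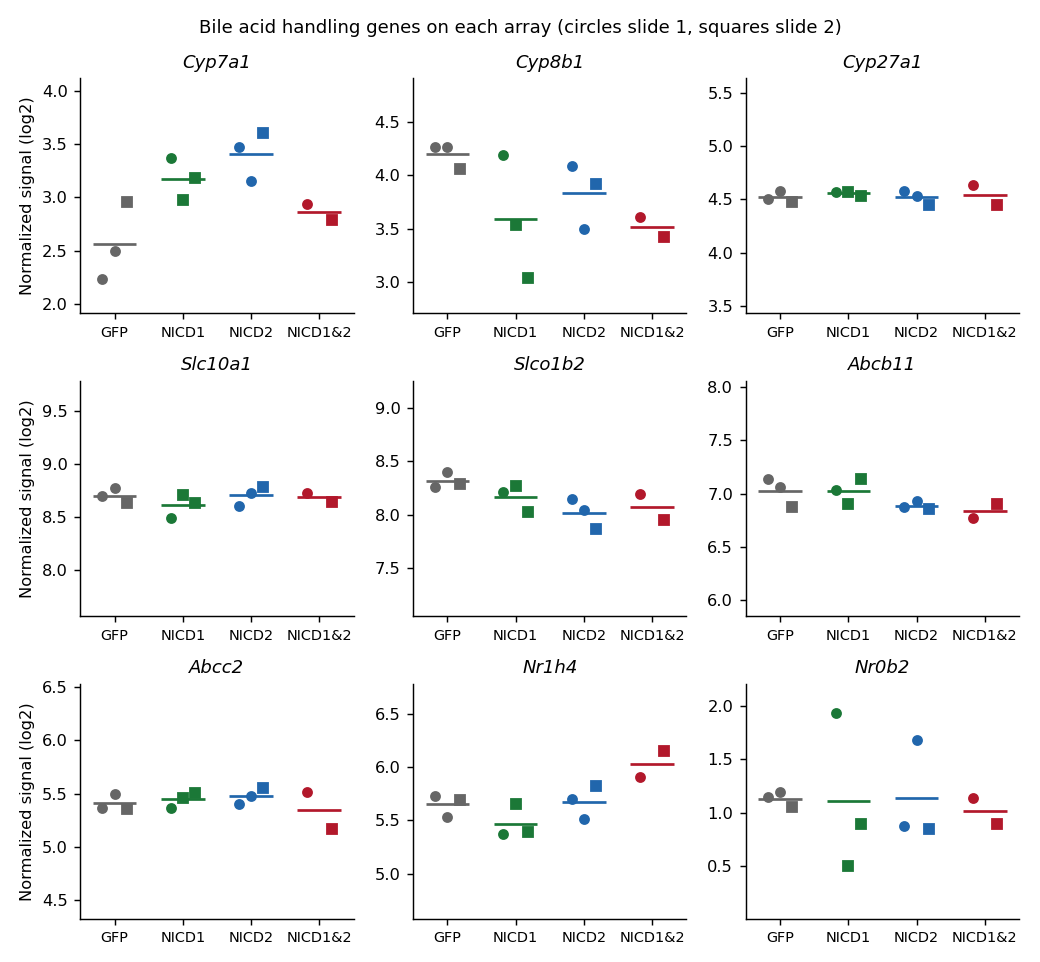
Normalized signal (log2, y axis, each panel with its own level but the same span) of the 9 genes in the 4 groups (x axis), one point per array and a line at the group mean. Cyp7a1 lies from 2.23 to 2.96 with GFP and from 3.15 to 3.60 with NICD2, while Slc10a1 stays within 8.49 to 8.78 in all groups.

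Cyp7a1, the rate-limiting enzyme of the classical route, had the highest difference of the 9 genes from GFP with NICD1 and with NICD2, whereas with NICD1&2 Nr1h4 stood higher. Its signal was 2.23, 2.50 and 2.96 with GFP, 3.37, 2.98 and 3.18 with NICD1, 3.47, 3.15 and 3.60 with NICD2, and 2.94 and 2.79 with NICD1&2. All NICD1 and NICD2 arrays lay above all GFP arrays, the closest NICD1 array by little, whereas both NICD1&2 arrays lay below the third GFP array. The log2 difference from GFP was 0.84 with NICD2 (1.79-fold, 95% confidence interval 0.39 to 1.29, adjusted p = 0.310), 0.61 with NICD1 (1.53-fold, 0.16 to 1.06, adjusted p = 0.801) and 0.30 with NICD1&2 (1.23-fold, -0.20 to 0.80, adjusted p = 0.507). The exact permutation p, two-sided, was 0.10 for NICD1 and for NICD2, which is the smallest that 3 arrays against 3 allow. On slide 2, with 1 GFP array, the NICD1 difference was 0.12 and the NICD1&2 difference -0.17.

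Cyp8b1, the sterol hydroxylase that commits bile acids to cholic acid, was lower on average in every NICD group without passing the test. It was at 4.27, 4.27 and 4.06 with GFP, 4.19, 3.54 and 3.04 with NICD1, 4.09, 3.50 and 3.92 with NICD2, and 3.61 and 3.42 with NICD1&2. Both NICD1&2 arrays lay below all GFP arrays, and the NICD1 arrays spread over more than a 2-fold range, one of them among the GFP values. The differences from GFP were -0.61 (adjusted p = 0.901), -0.36 (adjusted p = 0.891) and -0.69 (95% confidence interval -1.36 to -0.01, adjusted p = 0.333) in limma. Without the first NICD1 array the NICD1 difference was -0.91 (adjusted p = 0.516), and on slide 1 alone it was -0.08.
Cyp27a1, the mitochondrial hydroxylase of the alternative route, kept to 4.45 to 4.63 on all 11 arrays. Its differences from GFP were 0.04, 0.01 and 0.02 for NICD1, NICD2 and NICD1&2, with confidence intervals between -0.20 and 0.25.

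**Figure D4:**
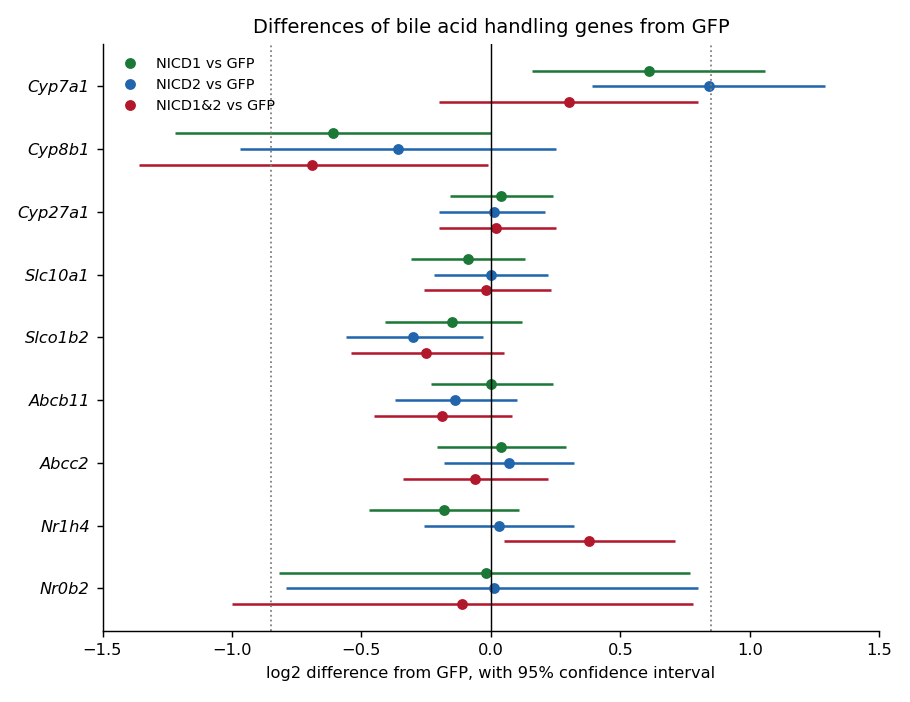
Log2 difference from GFP (x axis) with its 95% confidence interval for each of the 9 genes (y axis) and each NICD group, dotted lines marking a 1.8-fold difference. No point lies beyond a dotted line, and Nr0b2 and Cyp8b1 have the widest intervals.

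The uptake carriers did not pass the test either. Slc10a1, the main sodium-dependent bile acid carrier of the hepatocyte, lay between 8.49 and 8.78 on all arrays, and its differences from GFP were -0.09, 0.00 and -0.02, with intervals from -0.31 to 0.23. Its second probe gave -0.10, -0.02 and -0.03. All of its groups overlapped on both probes.
Slco1b2, a sodium-independent carrier of bile acids and drugs, was at 8.26, 8.40 and 8.29 with GFP, 8.21, 8.27 and 8.03 with NICD1, 8.15, 8.04 and 7.87 with NICD2, and 8.19 and 7.95 with NICD1&2. All NICD2 and NICD1&2 arrays lay below all GFP arrays. The differences were small, -0.15 (adjusted p = 0.917), -0.30 (1.23-fold, 95% confidence interval -0.56 to -0.03, adjusted p = 0.678) and -0.25 (adjusted p = 0.394).

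The export pumps of the canalicular membrane gave no call in any comparison. Abcb11, the bile salt export pump, was at 7.14, 7.06 and 6.88 with GFP, 7.04, 6.90 and 7.14 with NICD1, 6.88, 6.93 and 6.86 with NICD2, and 6.77 and 6.90 with NICD1&2. The groups overlapped, with differences from GFP of 0.00, -0.14 and -0.19 and intervals from -0.45 to 0.24. Abcc2 (Mrp2), which exports conjugated organic anions such as bilirubin glucuronide, lay between 5.17 and 5.55, with differences of 0.04, 0.07 and -0.06 and intervals from -0.34 to 0.32.

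Nr1h4, the bile acid receptor, was at 5.73, 5.53 and 5.69 with GFP, 5.37, 5.65 and 5.39 with NICD1, 5.70, 5.51 and 5.82 with NICD2, and 5.91 and 6.15 with NICD1&2. Both NICD1&2 arrays lay above all others. The difference of NICD1&2 from GFP was 0.38 (1.30-fold, 95% confidence interval 0.05 to 0.71, adjusted p = 0.289), and 0.26 relative to the median of all tested genes, which was itself 0.12 higher with NICD1&2 and 0.02 higher after quantile normalization. With NICD1 and NICD2 the differences from GFP were -0.18 and 0.03.
Nr0b2, the repressor that Nr1h4 induces, was 1.15, 1.19 and 1.05 with GFP, 1.93, 0.50 and 0.89 with NICD1, 0.87, 1.68 and 0.85 with NICD2, and 1.14 and 0.89 with NICD1&2. The GFP arrays were close together, while NICD1 (SD 0.74, n = 3) and NICD2 (SD 0.48, n = 3) each held 1 array well above the rest. The differences of the means were -0.02, 0.01 and -0.11, and the direction depended on single arrays.

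Whether the regulators moved with their known targets from array to array was asked for 4 pairs over the 11 arrays, with permutation p-values that were two-sided and adjusted over the 4. Nr0b2 and Cyp7a1 had r = 0.04 (rho = -0.30, permutation p = 0.904, adjusted 0.904), and Nr0b2 and Cyp8b1 r = 0.30 (rho = 0.37, permutation p = 0.376, adjusted 0.501). Nr1h4 had r = -0.46 with Nr0b2 (rho = -0.46, permutation p = 0.154, adjusted 0.307) and r = -0.59 with Abcb11 (rho = -0.58, permutation p = 0.058, adjusted 0.233), both negative although Nr1h4 is known as an activator of both genes. None passed the adjusted threshold.
After removal of the group means, with all 432 orders of the arrays within groups enumerated, Nr1h4 and Nr0b2 had r = -0.73 (exact permutation p = 0.056, adjusted 0.222), and from -0.82 to -0.59 without single arrays (adjusted 0.083 to 0.463). The other 3 pairs had adjusted p of 0.827 or more. With group means kept, r of Nr1h4 and Nr0b2 was -0.19 without the 2 arrays farthest from the Nr1h4 median (first NICD1 and second NICD1&2 array), beside -0.46 with them. Within groups r was -0.82 without the first NICD1 array and -0.75 without the second NICD1&2 array. Without the same 2 arrays Nr1h4 and Abcb11 had r = -0.66, and without the 2 farthest in Nr0b2 (first NICD1, second NICD2) r was -0.51 for Nr0b2 and Cyp7a1 and 0.47 for Nr0b2 and Cyp8b1.

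Between the NICD groups, 0 of the 9 genes were called for NICD1 against NICD2 (0.00277% of all probes), 0 for NICD1&2 against NICD1 (0.0139%) and 0 for NICD1&2 against NICD2 (0.00277%), and 0 of 9 met the study's definition where 1.26%, 2.70% and 3.06% of probes did. At an unadjusted p under 0.05 there were 0, 1 and 2 of 9, beside 3.74%, 12.5% and 8.90% of all probes, and 0, 2 and 2 of 9 had groups that did not overlap, beside 9.31%, 30.7% and 25.2% of all probes. The 2 genes were the same in both comparisons of NICD1&2. Nr1h4 was 0.56 higher with NICD1&2 than with NICD1 (adjusted p = 0.344) and 0.35 higher than with NICD2 (adjusted p = 0.561), and Cyp7a1 had differences of -0.31 (adjusted p = 0.559) and -0.54 (adjusted p = 0.561) in limma.
The interaction asks whether both vectors together differ from the sum of their separate differences. It was called for 0 of 9 genes and for 0 probes (0%), and at an unadjusted p under 0.05 for 2 of 9, beside 7.03% of all probes. Cyp7a1 alone met the study's definition here, as did 3.83% of all probes, with an interaction of -1.16 (95% confidence interval -1.83 to -0.48, unadjusted p = 0.004, adjusted p = 0.599). The other was Nr1h4 at 0.53 (adjusted p = 0.691). Only 2 arrays stand behind the combined group in both values.

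Beyond the 10 genes, lists of bile acid synthesis, transport and control held 46 other genes, of which 44 were tested. None of the 44 was called against GFP, and 1 was higher by the study's definition (Cyp39a1, with NICD1&2) and 1 lower (Slc51b, with NICD2), where of all 16627 tested genes 678 were higher with NICD1&2 and 102 lower with NICD2. Groups did not overlap for 13.6%, 18.2% and 40.9% of the 44 with NICD1, NICD2 and NICD1&2, beside 14.1%, 16.3% and 37.1% of all tested genes, and their medians were 0.01, 0.04 and 0.09. Cyp39a1, which hydroxylates an oxysterol on the way to bile acids, was at 2.65, 2.02 and 2.62 with GFP, 2.60, 3.08 and 2.70 with NICD1, 3.49, 3.52 and 2.83 with NICD2, and 3.55 and 3.56 with NICD1&2. All NICD2 and NICD1&2 arrays lay above GFP, with differences of 0.85 (adjusted p = 0.438) and 1.12 (2.18-fold, adjusted p = 0.165).
Slc51b, the beta subunit of the basolateral bile acid exporter, was lower with NICD2, at -3.68, -3.51 and -4.52 against -2.78, -3.19 and -2.71 with GFP (difference -1.01, adjusted p = 0.615). It was well above background on 2 of 3 NICD2 arrays. Atp8b1, a lipid flippase of the canalicular membrane, met the definition between NICD1&2 and NICD1 at -0.85 (adjusted p = 0.321), but its second probe, at -0.40, did not.

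**Figure D5:**
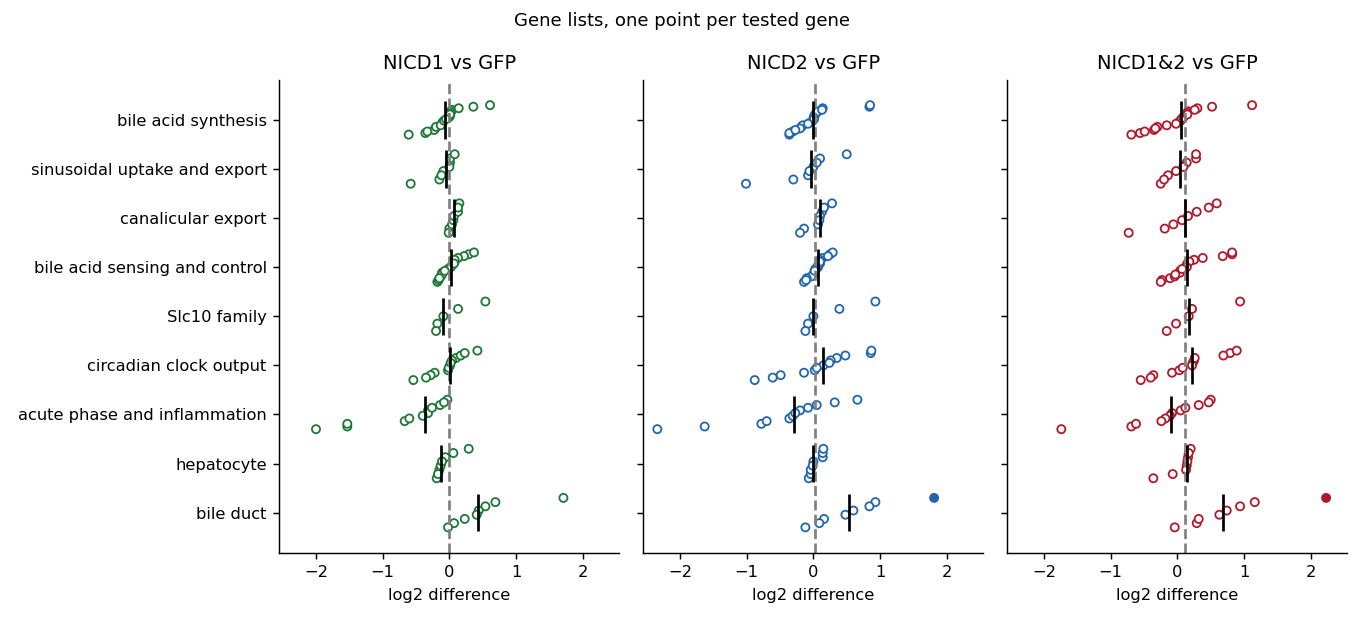
Log2 difference from GFP (x axis) of each tested gene of 9 gene lists (y axis) in the 3 NICD groups, without Slc10a6, where filled points were called at an adjusted p under 0.05, black bars are list medians and the dashed line is the median of all tested genes. The only filled points are Spp1 of the bile duct list, with NICD2 and NICD1&2.

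Of the Slc10 family without Slc10a6, 5 of 6 genes were tested and 0 were called in any group against GFP. Slc10a2 (Asbt), the bile acid carrier of the ileum and of bile duct cells, was the 1 gene of the 5 that met the study's definition, higher with NICD2 and with NICD1&2, as were 190 and 678 of the 16627 genes tested. It was at 1.61, 1.45 and 1.45 with GFP, 1.70, 2.17 and 2.26 with NICD1, 2.47, 2.44 and 2.38 with NICD2, and 2.54 and 2.33 with NICD1&2. All arrays of each NICD group lay above all GFP arrays, and those of NICD2 and NICD1&2 above those of NICD1 too. The differences from GFP were 0.54 (adjusted p = 0.741), 0.93 (1.90-fold, 95% confidence interval 0.59 to 1.26, adjusted p = 0.10) and 0.94 (1.91-fold, 0.56 to 1.31, adjusted p = 0.098). Slc10a3, Slc10a5 and Slc10a7 had differences between -0.20 and 0.39, and Slc10a4 was well above background on 0 arrays.
Slc10a2 is itself a marker of bile duct cells, and the summed level of that list was higher in the same groups. Of 8 bile duct genes, 1 was called with NICD2 and 1 with NICD1&2, in both cases Spp1 (osteopontin), at 1.81 (adjusted p = 0.027) and 2.23 (adjusted p = 0.011), and with NICD1 it was at 1.71 (adjusted p = 0.096). Of all 16627 genes tested, 12 were called higher with NICD2 and 20 with NICD1&2. The log2 of the summed signal of the list was 3.47 to 3.78 with GFP, 4.75 to 5.18 with NICD1, 4.86 to 5.21 with NICD2 and 5.30 to 5.53 with NICD1&2, with no overlap between GFP and the rest. Sox9, a duct transcription factor and Notch target, was 0.84 higher with NICD2 (adjusted p = 0.580) and 1.16 with NICD1&2 (adjusted p = 0.197), with 0.37 and 0.58 on a second probe, whereas the duct keratin Krt19 differed by 0.07, 0.09 and 0.29 with its groups overlapping. All 8 genes were well above background on some array, and the part of bile duct cells in the levels of Slc10a2 and Slc10a6 was not tested.

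Genes of sulphation, which forms the sulphated steroids that Slc10a6 carries, gave 0 calls among 5 tested. Sts, the desulphation gene of the list, had no named probe. By the study's definition 1 of the 5 was higher in each NICD group against GFP, as were 219, 190 and 678 of the 16627 genes tested. With NICD2 it was Sult1e1, an oestrogen sulphotransferase, whose difference of 1.21 (adjusted p = 0.845) came with groups that overlapped. Sult1e1 was well above background on only 1 of 3 GFP, 0 of 3 NICD1, 2 of 3 NICD2 and 1 of 2 NICD1&2 arrays. It also met the definition for NICD1 against NICD2 at a measured -1.21, but the bound there was 1.72-fold, short of 1.8-fold. Sult2b1, a cholesterol sulphotransferase, met the definition with NICD1 and NICD1&2, but none of the 3 GFP arrays and only 3 of the 8 others measured it well above background, which gives a bound of 1.32-fold and 1.41-fold (adjusted p = 0.870 and 0.279). It entered the test only through the groups where it is high.
The acute phase and inflammation list gave 0 calls among 12 tested genes, and 3 genes were lower by the study's definition with NICD1, 2 with NICD2 and 1 with NICD1&2, against 0 higher. Of all 16627 genes tested, 73, 102 and 176 were lower by that definition. Il1b, a cytokine of macrophages, was at -0.44, -0.73 and -0.40 with GFP and at -3.46, -3.31 and -1.82 with NICD2, a difference of -2.34 (adjusted p = 0.099). Its differences were -2.0 (adjusted p = 0.592) with NICD1 and -1.74 (adjusted p = 0.166) with NICD1&2, and its second probe gave -1.21, -1.27 and -0.93. Saa1 and Saa2, acute phase proteins of the hepatocyte, were each at -1.53 with NICD1 (adjusted p = 0.781 and 0.801), with GFP arrays of Saa1 spread from 5.36 to 7.69, and Socs3 was at -1.63 with NICD2 (adjusted p = 0.721). Lcn2 met the definition between NICD1 and NICD2 at -1.33 (adjusted p = 1.0) and between NICD1&2 and NICD1 at 1.17 (adjusted p = 0.414). Of the 7 Kupffer cell and monocyte markers, 0 were called in any comparison. Their groups overlapped for all 7 in the comparisons with GFP, while 4 of 7 were higher without overlap in NICD1&2 than in NICD1 and 3 of 7 than in NICD2, beside 32.8% and 25.8% of all tested genes apart in either direction. The log2 of their summed signal was 6.47 to 6.97 with GFP, 6.47 to 6.63 with NICD1, 6.51 to 6.66 with NICD2 and 6.79 to 6.81 with NICD1&2, and their part in these values was not tested.
Cyp7a1 is also known to follow the clock of the liver. Of 13 clock genes tested 0 were called, where 12 of all 16627 were called higher with NICD2. By the study's definition 2 were higher and 1 lower with NICD2 and 1 was higher with NICD1&2, as were 190, 102 and 678 of all genes. Per1 was among those higher with NICD2, at 0.86 (adjusted p = 0.600) with groups that overlapped. Per2, Dbp and Nr1d1 differed by 0.48, 0.02 and -0.49 there, and the list median was 0.15 beside 0.02 for all genes. Ciart, a clock repressor, was 0.87 higher with NICD2 (adjusted p = 0.224) and 0.89 higher with NICD1&2 (adjusted p = 0.152), with both groups above all GFP arrays, while with NICD1 the difference was 0.02 (adjusted p = 0.992). Its second probe gave 0.88 and 0.68, the latter short of the definition. Npas2, a clock activator, met the definition as lower with NICD2 (adjusted p = 0.591), but it was well above background on only 2 of 11 arrays, both with GFP, and so was tested only through the group where it is high. Its NICD1&2 mean of -4.14 lay beside the GFP mean of -4.18. The hour at which livers were taken was not in the labels, and its part in Cyp7a1 was not tested. Lyve1 of the sinusoidal endothelium was 0.86 (adjusted p = 0.285) and 0.93 (adjusted p = 0.162) higher with NICD2 and NICD1&2, and the other 4 endothelial markers (Kdr, Stab2, Pecam1 and Clec4g) differed from GFP by -0.22 to 0.20 there, Kdr lying below all GFP arrays in both groups and Stab2 with NICD1&2. The hepatocyte genes Apoa1, Ttr, Apob, Cps1, Ass1, Hnf4a and Serpina1a differed from GFP by -0.36 to 0.29.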

How the data were processed

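Total RNA of liver was labelled with Cy3 and hybridised to 11 arrays. Per the file headers, the scanner files hold intensities that the authors' Feature Extraction 11.5.1.1 had corrected for background. The deposited table holds log2 values that the authors scaled within every array to its 75th percentile, and they matched the scanner intensities when recomputed (within 0.009 for every probe once outlier spots were left out). The scanned arrays held 62976 spots, more than the format named in the methods. Genes were named through the RefSeq accession of the probe, and of several probes of a gene the one brightest on average stood for it.

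The tested probes exceeded background clearly on 2 or more of the 11 arrays, whatever their group. The 4 group means were estimated in a single fit to the 11 arrays in limma 3.58.1 in R 4.3.3 (lmFit, eBayes), with Benjamini-Hochberg adjustment over 36055 probes. Beside calls at an adjusted p under 0.05, the study's definition was counted, P below 0.15 without adjustment together with more than a 1.8-fold difference. A fold against a group with 0 arrays well above background is a lower bound for the scaling in use. The dim group then takes, array by array, the lowest signal well above background, or the probe's own where higher. The fit was tested on simulated data. Exact permutation tests ran over arrays, and correlations used 100000 permutations, or every order within groups once group means were removed (scipy 1.17.1). The precision is limited by 2 or 3 arrays per group.

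The 10 genes and all gene lists were chosen with earlier results of these data known. Named were the 10 genes, genes of the lists that were called or met the study's definition with groups that did not overlap, the hepatocyte markers, and the 5 genes most like and 3 least like Slc10a6. Further lists were checked for markers of lymphocytes, stellate cells and exocrine pancreas, each with 0 calls against GFP. Alternatives were other scalings, normexp with an offset of 50 followed by quantile normalization, other filters, slide and replicate number as blocks, no moderation, the groups compared alone, other probes, and leaving out each array.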

Additional observations from a re-analysis of the deposited data

How the results depend on the processing

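For the 9 genes other than Slc10a6, 0 were called in every comparison and in the interaction under every alternative tried. Of 480 alternative values of their differences from GFP, 426 kept direction and 54 turned it, in 14 of 27 differences, and 0 became significant. In Cyp7a1 only NICD1&2 within slide 2 turned (-0.17), and in Cyp8b1 and Slco1b2 no value turned. The others that turned were, for NICD1 against GFP, Slc10a1 (0.00 with quantile normalization and 0.03 within slide 2), Abcb11 (0.00 with the percentile of detected probes and -0.05 within slide 1), Abcc2 (-0.06 within slide 1) and Nr0b2 (0.15 with slide as a block and 0.76 within slide 1). For NICD2 against GFP they were Slc10a1 (-0.03 with the percentile of detected probes, -0.04 quantile, -0.10 normexp, -0.07 within slide 1 and -0.02 on the second probe), Cyp27a1 (-0.02 detected, -0.04 quantile and -0.02 within slide 2), Nr0b2 (-0.02 detected, -0.01 quantile, -0.03 normexp and -0.20 within slide 2) and Nr1h4 (0.00 detected, -0.01 quantile, -0.07 normexp and -0.02 within slide 1). For NICD1&2 against GFP they were Slc10a1 (0.00 within slide 2), Abcb11 (0.02 within slide 2), Abcc2 (0.08 within slide 1) and Cyp27a1 (-0.06 detected, -0.12 quantile, 0.00 with the replicate block and -0.02 within slide 2).

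Without single arrays the differences ranged, with NICD1, from -0.07 to 0.07 for Abcb11 and from -0.43 to 0.28 for Nr0b2, with NICD2 from -0.03 to 0.05 for Slc10a1, -0.03 to 0.04 for Cyp27a1, -0.27 to 0.15 for Nr0b2 and -0.04 to 0.11 for Nr1h4, and with NICD1&2 from -0.06 to 0.03 for Slc10a1, -0.24 to 0.11 for Abcc2, -0.07 to 0.12 for Cyp27a1 and -0.24 to 0.01 for Nr0b2. The number of the 9 meeting the study's definition ranged from 0 to 1 with NICD1 (1, Cyp8b1, without the first NICD1 array) and from 0 to 1 with NICD2 (1, Cyp7a1, at 1.04 without the third GFP array or 0.97 without the second NICD2 array).

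The bounds for Slc10a6 were lower with normexp, which here includes an offset and quantile normalization, at 1.20-fold for NICD2 and 1.14-fold for NICD1&2 against GFP, and 1.14-fold for NICD2 and 1.08-fold for NICD1&2 against NICD1, and with quantile normalization alone they were 1.91-fold, 1.42-fold, 1.98-fold and 1.47-fold in the same order. The number of the 5 most similar genes kept was 2 with quantile normalization, 0 with normexp and 2 to 5 without single arrays. The relation of Nr0b2 with Cyp7a1 ranged from r = -0.22 to 0.16 without single arrays, and that of Nr1h4 with Abcb11 passed the threshold with quantile normalization (r = -0.74, permutation p adjusted 0.042). The cause was not tested in any of these.

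Replicate numbers did not pair the arrays: same-numbered arrays correlated by -0.41 to 0.17 in their deviations from group means (15 pairs) and others by -0.29 to 0.46 (30 pairs). With the replicate block 0 of the 9 were called, and Cyp7a1 with NICD2 stayed at 0.84 (adjusted p = 0.349). Slc10a6 was well above background on 4 of 11 arrays, which limits it to bounds.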
